A study of Homo sapiens with 11 samples.

Results

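Centromere protein genes were followed on arrays of 2 human cancer cell lines that had been transfected with a mimic of the microRNA miR-365a-3p or with a control miRNA. The 10 genes were taken by name from the deposited table of 31325 gene symbols, and all 10 have a row: CENPA, CENPH, CENPK, CENPM, CENPN, CENPQ, ITGB3BP, CENPB, CENPE and CENPF. ITGB3BP encodes CENP-R. The arrays fall into 4 groups by cell line and treatment. MDA-MB-231 cells, a basal-like breast cancer line, gave 3 arrays with miR-365a-3p and 3 with control miRNA, and SKOV3 cells, an ovarian cancer line that the study's methods name as the derivative SKOV3.ip1, gave 3 with miR-365a-3p and 2 with control miRNA. The labels put the miR-365a-3p arrays at 48 h and give the controls the same figure without a unit, whereas the description of the series gives 24 h. Each tissue is represented by 1 established line, and all groups, controls included, received a transfected small RNA. The labels do not say whether replicate arrays came from separate cultures, so p-values measure only the spread between these arrays.

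The centromere is the chromosomal region on which the kinetochore is assembled, the protein structure that binds spindle microtubules in mitosis. Centromeric nucleosomes carry CENP-A, a variant of histone H3, and on them sits the constitutive centromere-associated network, a set of mostly small CENP proteins that stays at the centromere through the cell cycle. This network recruits the outer kinetochore, to which the very large proteins CENP-E and CENP-F are added in mitosis. A miRNA recognises its targets mainly through its seed, bases 2 to 8. The mature sequence is shown because it is the agent that distinguishes the groups, with the seed in capitals, as RefSeq gives it (GRCh38.p14, chr16:14309340-14309361, plus strand).
hsa-miR-365a-3p: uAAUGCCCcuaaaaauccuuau
Target sites in transcripts were not searched here.

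All 7 genes of small proteins (CENPA, CENPH, CENPK, CENPM, CENPN, CENPQ and ITGB3BP) had their higher mean in the miR-365a-3p group of either line, on values that were quantile normalized across the 11 arrays. CENPQ and ITGB3BP rose past the threshold in both lines, and CENPA, CENPK and CENPM in MDA-MB-231 cells. CENPF, one of the 3 genes of larger proteins, fell 4.06-fold in MDA-MB-231 cells, while CENPB and CENPE were not called in either line. The division into small and large rests on general knowledge of these proteins, since no protein sequences were used here. Of the 6853 genes with a mean above 8, 3945 in MDA-MB-231 and 4193 in SKOV3 cells also had the higher mean with miR-365a-3p. On the deposited values the higher mean with miR-365a-3p held for 6 of the 7 small-protein genes in each line.
A change was called at a Benjamini-Hochberg adjusted p under 0.05 in limma over all 31325 genes. By this rule MDA-MB-231 cells had 6 of the 10 genes called, 5 up and 1 down, where 26.1% of all genes were called, 14.4% up and 11.7% down. SKOV3 cells had 2 called, both up, where 7.25% of all genes were up, 7.11% down and 14.4% either way. Because most rows of the table lie near the floor of the arrays, the 6853 genes with a mean above 8 on the log2 scale, among which are the 10 genes, are the closer background. Of these, 39.0% were up and 26.2% down in MDA-MB-231 cells, whereas SKOV3 cells had 23.4% up and 15.3% down. The count of 2 of 10 that rose in SKOV3 cells thus lies near the background, and the 5 of 10 in MDA-MB-231 cells somewhat above it. The latter depended on the scaling. On the deposited values without further normalization, 2 of the 10 rose in MDA-MB-231 cells, where 26.1% of these brighter genes rose. The 2 genes that rose in both lines compare with 5.76% of all genes and 21% of the brighter ones.

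**Figure D1:**
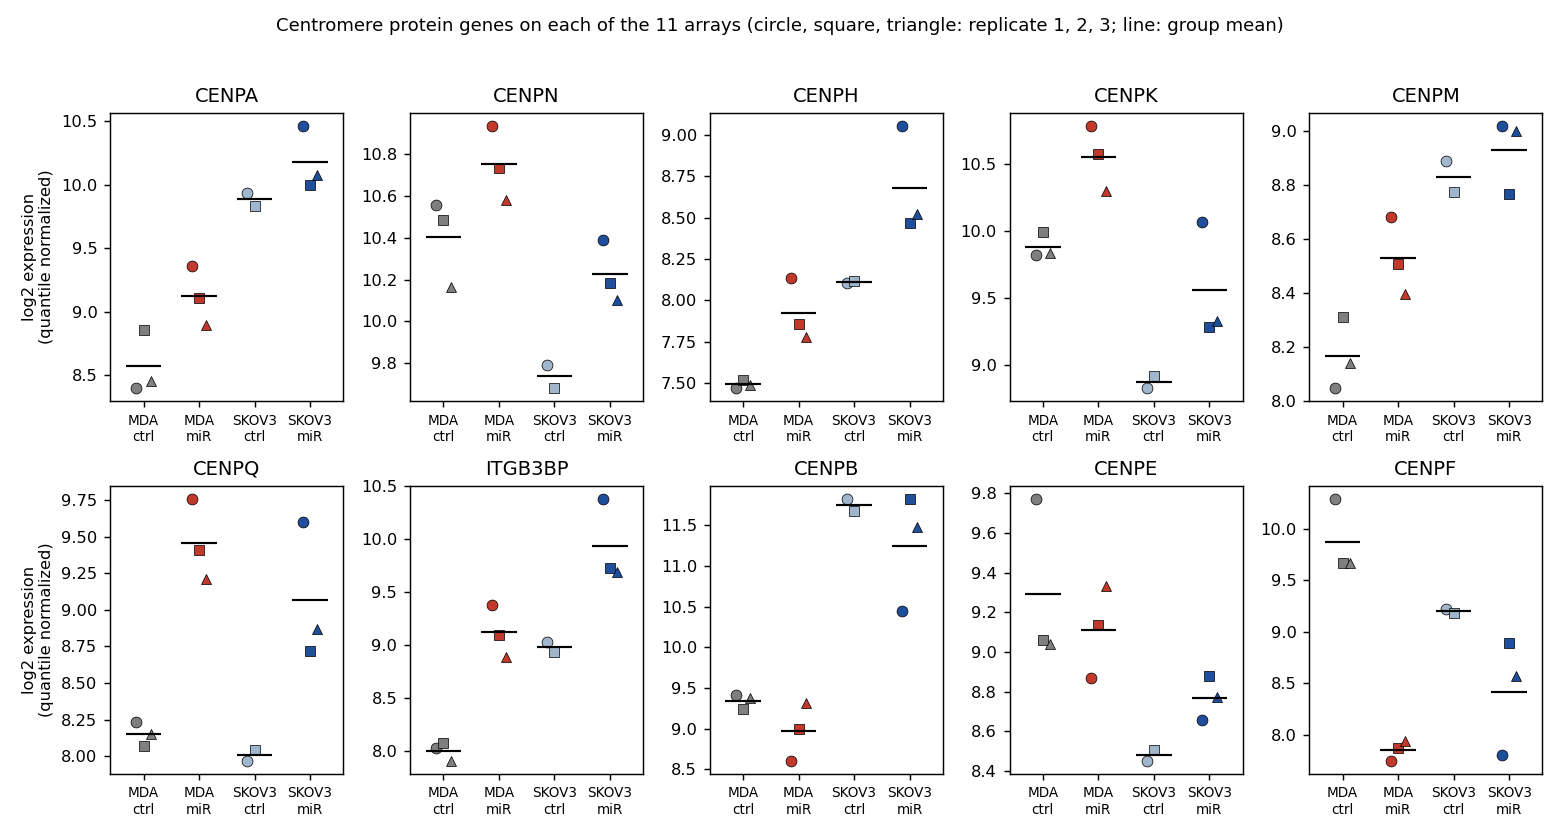
Quantile-normalized log2 expression of the 10 genes on each of the 11 arrays, 1 panel per gene, with the 4 groups on the x axis (ctrl, control miRNA; miR, miR-365a-3p), a marker shape for each replicate number and a line at the group mean. The miR-365a-3p arrays of CENPQ lie between 8.72 and 9.76, above its control arrays at 7.97 to 8.23, and those of CENPF in MDA-MB-231 cells lie between 7.75 and 7.94, below its controls at 9.67 to 10.29.

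The arrays of the treatment groups differed in ways that may bear on any of the results. The 75th percentile of the deposited values was 7.56 to 7.65 on the MDA-MB-231 miR-365a-3p arrays and 7.86 to 7.93 on their controls, and 7.67 to 7.80 against 7.98 to 8.04 in SKOV3 cells. In addition, 206 genes of small-protein families (ribosomal, respiratory chain and proteasome subunits) had higher values with miR-365a-3p, by a median of 0.58 (MDA-MB-231) and 0.43 (SKOV3) on the log2 scale, and 28 genes of large-protein families (myosins, dyneins, kinesins, laminins and collagens) had medians of -1.07 and -0.24 in the same order. The difference between the 2 family medians was 2.84 to 3.13 on the miR-365a-3p arrays and 0.97 to 1.30 on the control arrays of MDA-MB-231 cells, and 2.33 to 3.11 against 1.72 to 1.87 in SKOV3 cells. It was largest on replicate 1 of the miR-365a-3p arrays in both lines. The part of this shift in the changes of the centromere genes was not tested. Of the line markers, the control mean of ERBB2 was 10.86 in SKOV3 and 7.61 in MDA-MB-231 cells, that of EPCAM 10.36 and 7.63, and that of VIM 13.70 and 13.79, while KRT18 was no higher in SKOV3 cells (7.90 and 8.01). The group means of 6 leukocyte and endothelial markers all lay near the floor, between 7.25 and 7.47. Some markers moved with the treatment. CD44 fell by 2.52 and 1.43 on the log2 scale in the 2 lines, ERBB2 fell by 1.57 in SKOV3 cells, and EPCAM and KRT8 rose by 0.81 and 0.86 in MDA-MB-231 cells.

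ITGB3BP and CENPQ encode CENP-R and CENP-Q, subunits of the same module of the centromere-associated network (with CENP-O, CENP-P and CENP-U). The other genes of this module moved less. CENPO had log2 differences of 0.09 in MDA-MB-231 and 0.22 in SKOV3 cells and was not called in either. CENPP (0.25 and 0.20) and CENPU (deposited as MLF1IP, 0.55 and 0.41) were called in MDA-MB-231 cells only. In MDA-MB-231 cells, CENPQ had log2 values of 8.23, 8.07 and 8.15 on the control arrays and 9.76, 9.41 and 9.21 on the miR-365a-3p arrays. In SKOV3 cells it had 7.97 and 8.04 on the control arrays and 9.60, 8.72 and 8.87 on the miR-365a-3p arrays. The groups were well apart in both lines, with the highest value of each line on replicate 1. On the log2 scale CENPQ rose by 1.31 (standard error, SE, 0.22, limma adjusted p = 0.00231) in MDA-MB-231 cells and 1.06 (SE 0.24, limma adjusted p = 0.0206) in SKOV3 cells, which is 2.47-fold and 2.08-fold.
For ITGB3BP, the MDA-MB-231 controls read 8.03, 8.08 and 7.91 and the miR-365a-3p arrays 9.38, 9.09 and 8.89 on the log2 scale. The SKOV3 controls read 9.03 and 8.94 and the miR-365a-3p arrays 10.38, 9.73 and 9.69. Again no miR-365a-3p array reached down to the controls of its line. ITGB3BP rose 2.16-fold (log2 fold change 1.11, SE 0.19, limma adjusted p = 0.00234) and 1.93-fold (log2 fold change 0.95, SE 0.21, limma adjusted p = 0.0167). In a two-sided exact permutation test, with treatments exchanged among the arrays of a line, both genes had p = 0.005, the smallest that the 200 arrangements can give. This p is not adjusted over genes. For a rise it needs groups fully apart in both lines, which 36.3% of the genes with a mean above 8 had. This test takes the lines as independent, although the deviations of same-numbered miR-365a-3p arrays from their group means correlated between the lines (0.70, 0.31 and 0.34 across 6853 genes).
CENPQ and ITGB3BP are the genes of this set whose rise held in both lines on the deposited values too, where they rose by 1.03 and 0.80 on the log2 scale in MDA-MB-231 cells and by 0.84 and 0.80 in SKOV3 cells. In SKOV3 cells, however, neither was called without control replicate 1 or control replicate 2 (adjusted p up to 0.131 for CENPQ and 0.127 for ITGB3BP from limma) or when this line was fitted alone (0.113 and 0.0966).

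CENPH, CENPK and CENPM encode subunits of another module of the network, which also holds CENP-I. CENPK had log2 values of 9.82, 9.99 and 9.84 on the MDA-MB-231 controls and 10.78, 10.58 and 10.29 on the miR-365a-3p arrays, and rose by 0.67 (SE 0.20, limma adjusted p = 0.04). In SKOV3 cells it had 8.83 and 8.91 on the controls and 10.06, 9.28 and 9.32 with miR-365a-3p, a difference of about the same size (0.69, SE 0.23) that was not called (limma adjusted p = 0.0861). The miR-365a-3p arrays lay above the controls in either line, but in SKOV3 cells replicate 1 stood well above the other two.
CENPM read 8.05, 8.31 and 8.14 on the MDA-MB-231 controls and 8.68, 8.51 and 8.40 with miR-365a-3p, a rise of 0.36 (SE 0.098, limma adjusted p = 0.025). In SKOV3 cells its control values of 8.89 and 8.77 overlapped with the miR-365a-3p values of 9.02, 8.77 and 8.998 (difference 0.097, SE 0.11, limma adjusted p = 0.737). The direction of CENPM depended on the scaling of the arrays, with differences of -0.020 and -0.12 in the 2 lines on the deposited values.
CENPH had its lowest values on the MDA-MB-231 controls, 7.47, 7.52 and 7.49, close to the floor, against 8.13, 7.85 and 7.78 with miR-365a-3p. Its SKOV3 values were 8.10 and 8.12 on the controls and 9.05, 8.47 and 8.52 with miR-365a-3p. The groups of CENPH did not overlap, yet neither its difference of 0.43 (limma adjusted p = 0.0667) in MDA-MB-231 cells nor that of 0.57 (limma adjusted p = 0.0543) in SKOV3 cells was called. Its exact permutation p over both lines, not adjusted over genes, was 0.005, the smallest possible.

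CENPA encodes the centromeric histone itself, and CENPN a network subunit that binds the CENP-A nucleosome. CENPA read 8.40, 8.85 and 8.46 on the MDA-MB-231 controls and 9.36, 9.11 and 8.89 with miR-365a-3p, so that the lowest treated array lay just above the highest control. It rose by 0.55 on the log2 scale (SE 0.17, limma adjusted p = 0.0401), and in SKOV3 cells the difference was 0.30 (limma adjusted p = 0.429) between 9.93 and 9.84 on the controls and 10.46, 10.001 and 10.08 on the miR-365a-3p arrays.
CENPN had log2 values of 10.56, 10.49 and 10.16 on the MDA-MB-231 controls and 10.93, 10.73 and 10.58 with miR-365a-3p, again with a narrow gap. In SKOV3 cells it had 9.79 and 9.68 against 10.39, 10.18 and 10.10. Its differences of 0.35 (limma adjusted p = 0.0793) and 0.49 (limma adjusted p = 0.0514) were not called. The exact permutation p of CENPN, which is not adjusted over genes, was 0.005. By the same exact permutation test, CENPK and CENPF had p = 0.01, CENPA 0.015, CENPM 0.035, CENPB 0.12 and CENPE 0.765.
The calls of CENPA, CENPK and CENPM in MDA-MB-231 cells were the least firm. On the deposited values none of the 3 was called, with differences of 0.24 (limma adjusted p = 0.403), 0.60 (limma adjusted p = 0.0779) and -0.020 (limma adjusted p = 0.932). The calls of CENPA and CENPK each held in 4 of the 11 fits with 1 array left out and that of CENPM in 7, all 3 being lost without the MDA-MB-231 miR-365a-3p replicate 1 or 2 or the MDA-MB-231 control replicate 1 or 3. CENPA and CENPK also lost theirs without either SKOV3 control, CENPA without the SKOV3 miR-365a-3p replicate 3, and CENPK without the MDA-MB-231 control replicate 2.

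CENP-F is a coiled-coil protein of the outer kinetochore whose level peaks in late G2 and mitosis. CENPF read 10.29, 9.67 and 9.67 on the MDA-MB-231 controls and 7.75, 7.87 and 7.94 with miR-365a-3p. The treated arrays sat next to the floor, so that the measured fall may understate the change. CENPF fell by 2.02 on the log2 scale (SE 0.27, limma adjusted p = 0.000687), and the call held with each array left out, with differences between -2.14 and -1.82.
In SKOV3 cells, CENPF had 9.23 and 9.18 on the controls and 7.80, 8.89 and 8.57 with miR-365a-3p. All 3 treated arrays were below the controls, replicate 1 by far the most, and the difference of -0.78 (SE 0.30) was not called (limma adjusted p = 0.132). The difference between the responses of the 2 lines was -1.24 (SE 0.40, limma adjusted p = 0.199). Without the SKOV3 miR-365a-3p replicate 1 the change in SKOV3 cells was -0.47, and the difference between the lines became -1.54 (SE 0.27) and was called (limma adjusted p = 0.0227).
CENP-E is a kinesin motor that moves chromosomes along microtubules and is, like CENP-F, a very large protein. CENPE read 9.77, 9.06 and 9.04 on the MDA-MB-231 controls and 8.87, 9.14 and 9.33 with miR-365a-3p, so that the groups overlapped (difference -0.18, SE 0.19, limma adjusted p = 0.627). In SKOV3 cells it had 8.45 and 8.51 on the controls and the higher values 8.66, 8.88 and 8.77 with miR-365a-3p (difference 0.29, SE 0.22, limma adjusted p = 0.533). Without the first MDA-MB-231 control the difference there was 0.061, so CENPE had no settled direction.
CENP-B, of intermediate size, binds a sequence box in the alpha-satellite DNA of centromeres. CENPB read 9.41, 9.25 and 9.37 on the MDA-MB-231 controls and 8.61, 8.99 and 9.32 with miR-365a-3p. In SKOV3 cells it read 11.83 and 11.68 against 10.44, 11.83 and 11.48. Both comparisons overlapped, with differences of -0.37 (SE 0.32, limma adjusted p = 0.517) and -0.51 (SE 0.36, limma adjusted p = 0.497), and the replicate 1 arrays carried much of them.

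**Figure D2:**
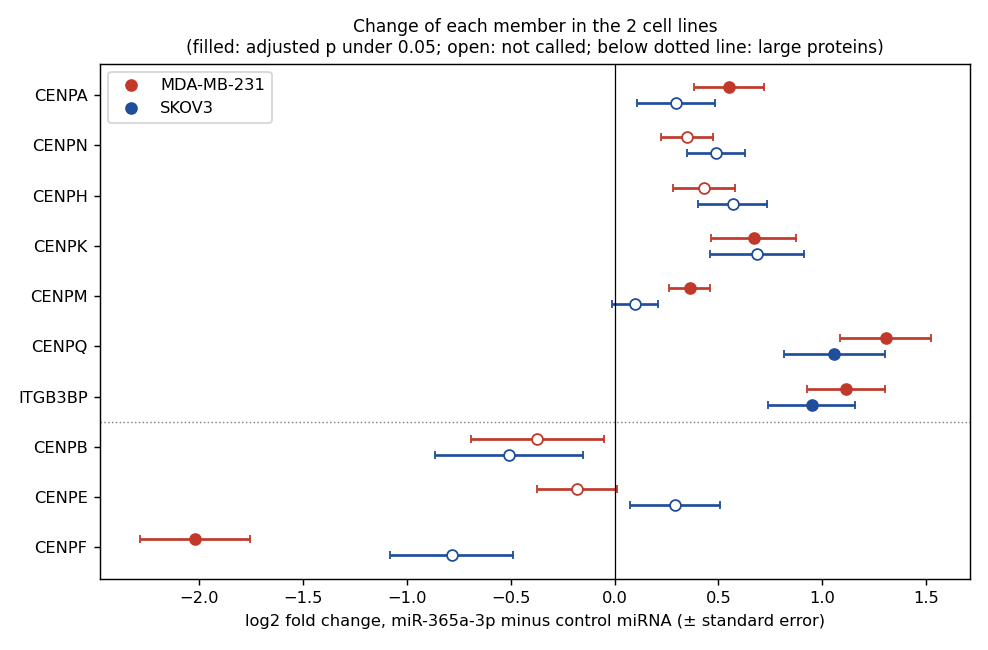
Log2 fold change of each gene with its SE in MDA-MB-231 and SKOV3 cells, where filled points passed an adjusted p of 0.05 and open points did not, with small proteins above the dotted line and larger ones below it. The 14 values of the small proteins all lie above 0, from 0.097 to 1.31, whereas those of CENPB, CENPE and CENPF reach from -2.02 to 0.29. Of the 6853 genes with a mean above 8, 3945 (MDA-MB-231) and 4193 (SKOV3) had values above 0.

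The comparison of small with large proteins was made on the medians of their log2 fold changes and has no test, since the genes were listed with results of these arrays known. The median was 0.55 for the 7 small and -0.37 for the 3 larger proteins in MDA-MB-231 cells, and 0.57 and -0.51 in SKOV3 cells. Over the 6853 genes with a mean above 8 it was 0.17 in MDA-MB-231 and 0.15 in SKOV3 cells. Both medians of the larger proteins are the values of CENPB, which was not called in either line. CENPF and CENPE had -2.02 and -0.18 in MDA-MB-231 cells and -0.78 and 0.29 in SKOV3 cells. The large-minus-small difference was -0.92 in MDA-MB-231 cells, with an SD of 0.59 over the 3 treated arrays, and -1.08 in SKOV3 cells, with an SD of 1.02. With CENPB left out of the larger proteins it was -1.65 and -0.82.
On single arrays the difference, taken against the control means of each line, was -1.53, -0.89 and -0.35 on the MDA-MB-231 miR-365a-3p arrays and -2.25, -0.34 and -0.69 on those of SKOV3 cells. The control arrays had 0.44, -0.29 and -0.17 in MDA-MB-231 and -0.026 and 0.026 in SKOV3 cells. Replicate 1 was thus the most extreme in both lines. Among the 3 miR-365a-3p arrays of each line, it held the highest value of 7 of the 7 small-protein genes and the lowest of 3 of the 3 larger ones, in MDA-MB-231 and in SKOV3 cells alike. The same arrays had the lowest 75th percentile of their group and the largest balance between small- and large-protein families. Without both of these arrays, an alternative added after the data were seen, 4 of the 10 genes rose and 1 fell in MDA-MB-231 cells, 4 rose in SKOV3 cells, and the large-minus-small differences were -0.60 and -0.50. In the same fits 36.6% and 22.2% of the brighter genes rose, so that the MDA-MB-231 count lies near the background.
Over both lines, 6 of the 7 small-protein genes (CENPM being the exception) had all miR-365a-3p arrays above all controls, and CENPF had all of them below. Among the 6853 brighter genes, 36.3% were above in this way, and of all genes 13.3% were above and 10.3% below. The difference between the lines in their response was called for 0 of the 10 genes by limma, against 2.54% of all genes, and had an unadjusted p under 0.05 for 1 gene, CENPF.

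**Figure D3:**
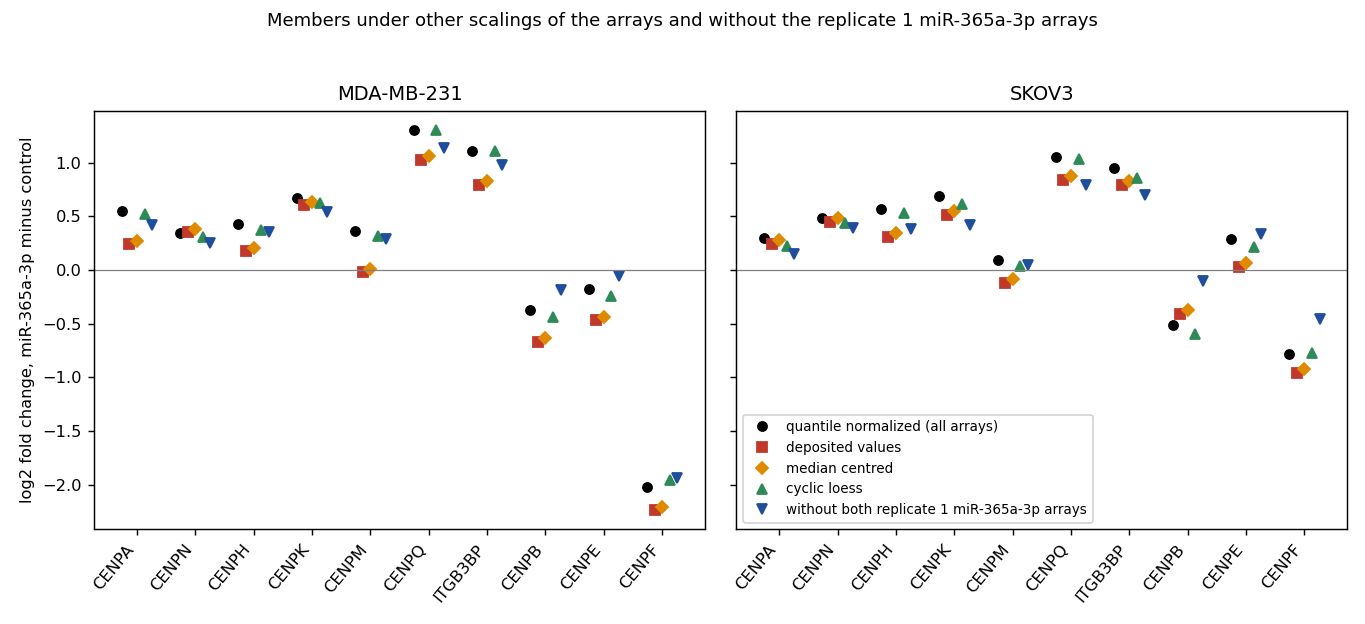
Log2 fold change of each gene, with a panel per cell line, after quantile normalization of all arrays, on the deposited values, after centring of each array on its median, after cyclic loess, and without the replicate 1 miR-365a-3p arrays. CENPQ and ITGB3BP lie between 0.70 and 1.31 and CENPF below 0, while CENPM lies near 0 or below it on the deposited and the median-centred values of SKOV3 cells.

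Before any miR-365a-3p, the lines differed in the levels of most of these genes. Between the 2 control groups 8 of the 10 genes were called, against 16.1% of all genes and 39.3% of those with a mean above 8. CENPB had the largest difference, with a mean of 9.35 ± 0.086 (SD, n = 3) in MDA-MB-231 and 11.76 ± 0.10 (SD, n = 2) in SKOV3 cells, 5.32-fold higher in the ovarian line (limma adjusted p = 0.00173). CENPA (2.49-fold), ITGB3BP (1.97-fold), CENPM (1.58-fold) and CENPH (1.54-fold) were higher in SKOV3 cells as well. CENPK (2.02-fold), CENPE (1.76-fold) and CENPN (1.59-fold) were higher in MDA-MB-231 cells, and CENPQ and CENPF were not called. The call of CENPE depended on the scaling. It was lost on the deposited values (limma adjusted p = 0.0844) and with median centring (limma adjusted p = 0.0792). Only CENPA, CENPB and CENPM kept their call without either SKOV3 control replicate 1 or SKOV3 control replicate 2, when a single array stood for that group. On these control arrays the RNAs of CENPH and CENPM were higher in SKOV3 and that of CENPK in MDA-MB-231 cells, although their products belong to the same module. Protein levels were not measured on these arrays.

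Other genes of the centromere and kinetochore were read from lists that also were drawn up with earlier results known. Among 11 further CENP genes, MDA-MB-231 cells had 9 up and SKOV3 cells 3, and 0 fell in either, where 39.0% and 23.4% of the genes with a mean above 8 were up, so that the SKOV3 count lies near this background. Not all genes of the lists reach that mean. The 11 genes had median log2 fold changes of 0.55 and 0.30. CENPI rose by 0.18 and 0.20, CENPS (deposited as APITD1) by 0.59 and 0.62, and CENPV by 0.71 and 0.51 on the log2 scale in MDA-MB-231 and SKOV3 cells. The group means of CENPI, between 7.51 and 7.86, were close to the floor. CENPC (deposited as CENPC1), a scaffold of the network, rose by 0.64 in MDA-MB-231 cells. The calls, and the signs of some genes, depended on the scaling here. On the deposited values 4 of the 11 were up in MDA-MB-231 and 0 in SKOV3 cells. Of the brighter genes, 26.1% and 15.1% were then up. The medians were 0.18 and 0.11, with 7 and 9 of the 11 genes above 0, and CENPI stood at -0.096 in MDA-MB-231 cells. The SKOV3 calls of CENPS, CENPI and CENPV held in 7, 4 and 2 of the 11 fits with 1 array left out.
Of the 4 genes that load CENP-A onto chromatin, 2 rose in each line, namely MIS18A (deposited as C21orf45; 0.65 and 0.65) and OIP5 (0.64 and 0.83). With 39.0% and 23.4% of brighter genes up, 2 of 4 is little to read from, and the OIP5 call held in 4 (MDA-MB-231) and 5 (SKOV3) of the 11 fits with 1 array left out. HJURP, the chaperone of CENP-A, was not called (-0.46 and 0.13). Without both replicate 1 arrays 1 of the 4 rose in each line, and on the deposited values none rose and 1 fell in MDA-MB-231 cells.
Of 10 outer kinetochore genes, whose products form the microtubule-binding layer, 5 rose and 1 fell in MDA-MB-231 cells and 4 rose in SKOV3 cells. The brighter genes had 39.0% up and 26.2% down in MDA-MB-231 cells and 23.4% up in SKOV3 cells. NSL1 rose by 1.15 (limma adjusted p = 0.000103) and 0.89 (limma adjusted p = 0.00137), SPC25 by 0.70 and 0.71, and DSN1 by 0.57 and 0.70 on the log2 scale. SPC24, the partner of SPC25, fell by 0.48 in MDA-MB-231 cells and stood at -0.026 in SKOV3 cells. On the deposited values 3 of the 10 genes rose and 2 fell in MDA-MB-231 cells, where 26.1% of the brighter genes rose and 33.3% fell. In SKOV3 cells 3 then rose and 1 fell, against 15.1% and 19.35% of the brighter genes. The medians of the list were 0.25 and 0.38 there, against 0.57 and 0.59 after quantile normalization.
Of 10 genes of the spindle checkpoint and the kinetochore corona, 4 rose and 2 fell in MDA-MB-231 cells and 3 rose in SKOV3 cells, which is near the shares of the brighter genes (39.0% up and 26.2% down, and 23.4% up). The checkpoint kinase gene TTK rose by 1.28 and 1.07, SPDL1 (deposited as CCDC99), which recruits dynein to kinetochores, by 1.06 and 0.71, and ZWILCH by 0.39 and 0.84. With 1 array left out, the SKOV3 call of SPDL1 held in 2 of 11 fits and that of TTK in 7, and the MDA-MB-231 call of ZWILCH in 7. BUB1, another checkpoint kinase, fell by 0.79 and KNTC1, a corona subunit, fell by 0.61 in MDA-MB-231 cells.
None of the 4 genes of the chromosomal passenger complex, which corrects faulty attachments, rose in either line, while SKOV3 cells had 1 gene down and MDA-MB-231 cells 2, INCENP being down in both (it fell by 0.30 and 0.25, close to the floor). With 15.3% and 26.2% of the brighter genes down in SKOV3 and MDA-MB-231 cells, these counts from 4 genes are little to read from. Among 12 proliferation genes, 6 fell and 0 rose in MDA-MB-231 cells, whereas SKOV3 cells had 2 up and 2 down. Of the brighter genes, 26.2% were down in MDA-MB-231 cells, whereas for SKOV3 the 23.4% up and 15.3% down are close to the counts of this list. MKI67, which encodes the Ki-67 protein, fell by 0.60 and 0.43, and PLK1, a mitotic kinase, by 0.65 and 0.91. The miR-365a-3p means of MKI67, 7.28 in MDA-MB-231 and 7.33 in SKOV3 cells, lay near the floor, and its control means were 7.88 and 7.76. CCNB1, the mitotic cyclin gene, stood at 0.086 and -0.057 and was not called. The mean of the 12 proliferation genes was 9.20 to 9.44 on the treated and 9.76 to 9.90 on the control arrays of MDA-MB-231 cells, and 9.43 to 9.61 against 9.65 and 9.73 in SKOV3 cells. In bulk RNA, a change in the share of cells in mitosis and a change of RNA per cell cannot be told apart.

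**Figure D4:**
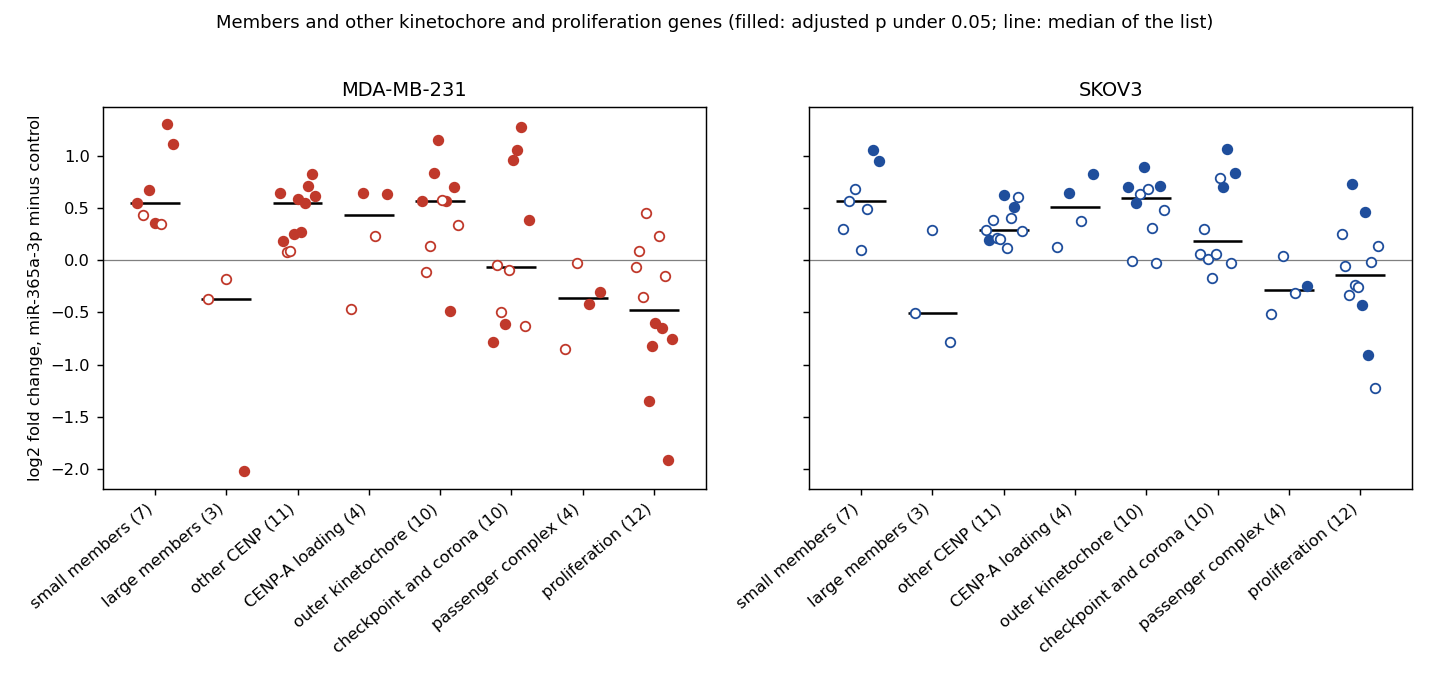
Log2 fold changes of the small and larger centromere proteins and of 6 lists of related genes in MDA-MB-231 and SKOV3 cells, 1 point per gene, filled where the adjusted p was under 0.05, with a line at the median of each list and its number of genes in parentheses. The medians of the 11 other CENP genes (0.55 and 0.30) lie above 0 and those of the 12 proliferation genes (-0.48 and -0.14) below it.

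What many of the 10 genes share in the genome is a close neighbour on the other strand. RefSeq promoter windows (GRCh38.p14, from 250 bases before to 50 bases after the start) were matched for 8 of the 10 genes, all but CENPH and CENPM. For 5 of these 8 (62.5%), a gene on the opposite strand starts within 1000 bases, against 22.0% of all 35116 promoters and 24.1% of the protein-coding ones. The pairs, with the distance between the starts, are CENPQ and MMUT (117 bases), CENPK and PPWD1 (128 bases), CENPB and CDC25B (211 bases), ITGB3BP and EFCAB7 (300 bases), and CENPN and CMC2 (329 bases). The windows of CENPK, CENPQ and CENPB are shown because they hold the starts of both genes of a pair, and that of CENPF because it went the other way and has no such neighbour. Capitals mark the CCAAT box, the letters TTTGAA of the cell cycle homology region and GCGGGAA, a form of the E2F site, on either strand. No 2 of the marked matches overlap.
CENPK, chr5:65563119-65563418, minus strand: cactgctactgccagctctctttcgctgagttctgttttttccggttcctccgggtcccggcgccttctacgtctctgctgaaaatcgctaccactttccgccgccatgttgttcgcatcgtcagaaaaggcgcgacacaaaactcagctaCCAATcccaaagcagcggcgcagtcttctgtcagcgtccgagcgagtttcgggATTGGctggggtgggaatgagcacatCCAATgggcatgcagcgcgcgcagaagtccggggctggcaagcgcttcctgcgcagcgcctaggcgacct
CENPQ, chr6:49463120-49463419, plus strand: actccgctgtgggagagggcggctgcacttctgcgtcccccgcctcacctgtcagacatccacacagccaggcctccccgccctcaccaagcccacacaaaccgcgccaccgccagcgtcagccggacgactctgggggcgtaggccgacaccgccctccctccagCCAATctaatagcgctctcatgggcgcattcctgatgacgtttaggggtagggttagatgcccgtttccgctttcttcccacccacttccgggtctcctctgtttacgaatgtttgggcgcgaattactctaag
CENPB, chr20:3786691-3786990, minus strand: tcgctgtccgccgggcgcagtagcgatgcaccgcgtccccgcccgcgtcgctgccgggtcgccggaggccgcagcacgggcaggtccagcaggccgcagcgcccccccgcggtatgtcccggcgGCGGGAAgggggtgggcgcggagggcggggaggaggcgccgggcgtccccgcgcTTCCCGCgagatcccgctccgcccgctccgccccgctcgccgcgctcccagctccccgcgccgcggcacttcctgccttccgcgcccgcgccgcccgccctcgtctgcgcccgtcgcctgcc
CENPF, chr1:214602945-214603244, plus strand: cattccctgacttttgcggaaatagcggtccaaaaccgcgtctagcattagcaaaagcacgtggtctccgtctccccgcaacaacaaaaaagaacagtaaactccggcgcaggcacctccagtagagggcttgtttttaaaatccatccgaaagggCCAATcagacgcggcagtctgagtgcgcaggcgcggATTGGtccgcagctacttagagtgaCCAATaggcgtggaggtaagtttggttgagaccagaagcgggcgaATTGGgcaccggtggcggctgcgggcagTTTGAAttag
The CENPF window has 4 CCAAT boxes, a number that 0.991% of all promoters reach, and the CENPK window has 3, which 3.26% reach. Of the 8 genes, 5 have at least 1 CCAAT box (34.6% of all promoters), 3 have TTTGAA (15.2%) and 3 have GCGGGAA (6.55%). The motifs did not sort the genes by direction, since CCAAT boxes stand in CENPF, which fell, and in CENPA, CENPK, CENPN and CENPQ. The windows of ITGB3BP and CENPE hold none of the 3.

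The neighbours gave a second reading beside the same start sites. PPWD1, which encodes a peptidyl-prolyl isomerase, had log2 values of 9.21, 9.07 and 9.27 on the MDA-MB-231 controls and 10.07, 10.05 and 9.997 with miR-365a-3p. It rose by 0.85 (SE 0.084, limma adjusted p = 0.00016) in MDA-MB-231 and by 0.73 (SE 0.094, limma adjusted p = 0.00129) in SKOV3 cells, next to 0.67 and 0.69 for CENPK. EFCAB7 rose by 0.90 (limma adjusted p = 0.0101) and 0.80 (limma adjusted p = 0.0492), next to 1.11 and 0.95 for ITGB3BP, but its call in SKOV3 cells held in 3 of the 11 fits with 1 array left out. The annotated spans of EFCAB7 and ITGB3BP overlap on opposite strands, and the positions of the probes are not given in the sources used here, so that these readings may not be fully separate.
MMUT (deposited as MUT), a mitochondrial mutase of vitamin B12 metabolism, moved less than CENPQ. It had 8.23, 8.03 and 8.15 on the MDA-MB-231 controls and 8.16, 8.35 and 8.44 with miR-365a-3p, which overlap, and its differences of 0.18 (limma adjusted p = 0.32) and 0.27 (limma adjusted p = 0.237) were not called, next to 1.31 and 1.06 for CENPQ. The gap between the genes of this pair was not tested.
CMC2 (deposited as C16orf61), a factor for cytochrome oxidase assembly, had a difference of 0.20 in MDA-MB-231 cells (limma adjusted p = 0.307) and rose by 0.54 in SKOV3 cells (limma adjusted p = 0.0259), next to 0.35 and 0.49 for CENPN. That call was lost without SKOV3 miR-365a-3p replicate 1 or 2 or either SKOV3 control. CDC25B, a phosphatase that activates mitotic CDK1, had 8.51, 8.53 and 8.62 on the MDA-MB-231 controls and 7.54, 7.605 and 7.66 with miR-365a-3p. In SKOV3 cells it had 10.53 and 10.81 against 8.09, 8.66 and 8.39. The groups of CDC25B were far apart, and it changed by -0.95 (limma adjusted p = 0.0008) and -2.29 (limma adjusted p = 3.69e-05), where CENPB had -0.37 and -0.51 and was not called.

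**Figure D5:**
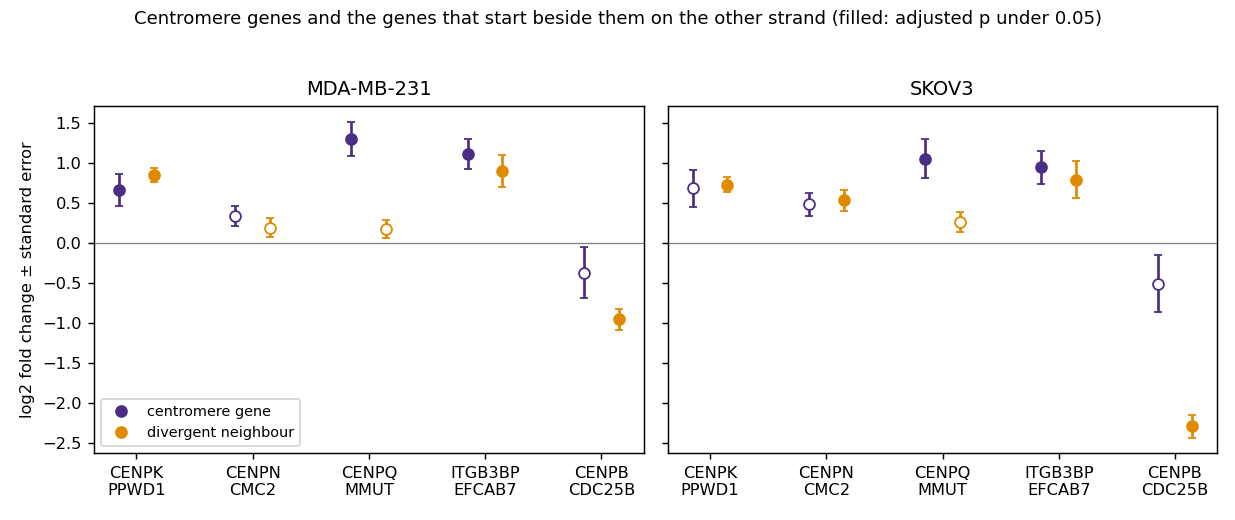
Log2 fold change with SE of 5 centromere genes and of the genes that start beside them on the other strand, in MDA-MB-231 and SKOV3 cells, with filled points for an adjusted p under 0.05. PPWD1 (0.85 and 0.73) and EFCAB7 (0.90 and 0.80) lie near their centromere genes, MMUT (0.18 and 0.27) lies below CENPQ, and CDC25B (-0.95 and -2.29) lies below CENPB.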

How the data were processed

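Total RNA of both lines was read as biotinylated cRNA on Illumina HumanHT-12 v4 BeadChips. Normalization by the authors used quantiles in lumi (version not given in the sources used here), and the deposited log2 values are 1 per gene symbol and array. Whether lumi's variance-stabilizing transformation was used, how probes of a gene were joined and how background was treated are not stated. The deposited columns did not share one distribution, so all 11 were brought to one by quantiles (limma 3.58.1, R 4.3.3). A model of 4 group means was fitted to all 31325 symbols (lmFit, eBayes), with Benjamini-Hochberg adjustment over all of them. No detection values were used, and precision is limited by how few arrays there are. The 10 genes and the lists of related genes were chosen with earlier results of these data known. The genes named are these 10, their divergent neighbours, and list genes called in both lines with the same sign. CENPC, CENPO, CENPP, CENPU, HJURP, SPC24, BUB1, KNTC1 and CCNB1 were named after their values were seen. Families of small and large proteins were taken by symbol pattern. The planned division at a protein length was replaced by general knowledge. Older symbols, promoters and the miRNA came from RefSeq tables of GRCh38.p14. The fit was tested on simulated data. The alternatives were the deposited values, median centring, cyclic loess, each line alone, replicate blocks, a filter on dim genes, an intensity trend, array weights, an adjusted p under 0.01 and each array left out.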

Additional observations from a re-analysis of the deposited data

Results flagged for a closer look

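The responses of the 2 cell lines differed, by the test of the difference itself, for 2 genes outside the centromere set. They were picked from all divergent neighbours and all lists of related genes. In this test 2.54% of all genes were called, so that a count of 2 is little to read from. CDC25B, the divergent neighbour of CENPB, changed by -0.95 in MDA-MB-231 and by -2.29 in SKOV3 cells, a difference of 1.34 (standard error 0.19, limma adjusted p = 0.00886). Its MDA-MB-231 arrays with miR-365a-3p lay close to the floor, at 7.54 to 7.66. TYMS, of the proliferation list, changed by -0.75 in MDA-MB-231 and 0.13 in SKOV3 cells, a difference of -0.88 (standard error 0.18, limma adjusted p = 0.0459). Groups of 2 or 3 arrays were too small for a search for outlying arrays.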

How the results depend on the processing

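In MDA-MB-231 cells 6 of the 10 genes were called, and 3 were called on the deposited values, with median centring, with cyclic loess and at an adjusted p under 0.01. It was 8 with the replicate block shared by the lines, with only genes above the median of gene means and with array weights (CENPH and CENPN added), and 7 with an intensity trend. Omitting single arrays gave 3 to 7. In SKOV3 cells 2 were called, against 1 with cyclic loess, 0 with the line fitted alone, 0 at an adjusted p under 0.01, 4 with the replicate block shared by the lines, 5 with only genes above the median of gene means, 5 with an intensity trend and robust hyperparameters, 6 with array weights, 4 without both miR-365a-3p replicate 1 arrays, and 0 to 4 with each array left out. The count was 0 without either SKOV3 control. For the difference between lines, the count of 0 became 1 (CENPF) with array weights, without both miR-365a-3p replicate 1 arrays and, among the arrays left out in turn (0 to 1), without the SKOV3 miR-365a-3p replicate 1. Between the controls, 8 became 3 at an adjusted p under 0.01, and 3 to 9 with each array left out. The large-minus-small difference was -1.65 without CENPB in MDA-MB-231 cells, and with each array left out it was -1.21 to -0.61 there and -1.47 to -0.51 in SKOV3 cells. Signs turned for CENPM on the deposited values (-0.020 in MDA-MB-231 and -0.12 in SKOV3 cells) and with median centring (-0.086 in SKOV3 cells), for CENPE without the first MDA-MB-231 control (range -0.31 to 0.061), for MUT on the deposited values (-0.19 and -0.020) and with median centring (-0.16 in MDA-MB-231 cells), and for CENPI in MDA-MB-231 cells on the deposited values (-0.096) and with median centring (-0.064). The cause of these changes was not tested.

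Treated and control arrays of one replicate number had deviations from their group means that were correlated across 6853 genes. The correlations were -0.12, 0.042 and 0.23 in MDA-MB-231 and 0.039 and -0.073 in SKOV3 cells. They cannot decide whether the numbers pair treated with control arrays, because deviations within groups of 2 or 3 arrays are not independent. Between the lines, miR-365a-3p arrays of one number correlated at 0.70, 0.31 and 0.34, and controls at 0.12 and -0.13, and a replicate block shared by the lines gave 8 calls in MDA-MB-231 and 4 in SKOV3 cells. With a replicate block within each line 4 genes were called in MDA-MB-231 and 2 in SKOV3 cells: CENPQ (limma adjusted p = 0.0623) lost its call in SKOV3 cells, and CENPA (0.081), CENPK (0.086) and CENPM (0.0658) lost theirs in MDA-MB-231 cells, while CENPN was called in both lines (0.00901 and 0.0106). Of the 11 other CENP genes, 4 rose in MDA-MB-231 and 0 in SKOV3 cells on the deposited values, against 9 and 3 after quantile normalization, and 8 and 1 without both miR-365a-3p replicate 1 arrays.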
